A study of Mus musculus with 8 samples.

Results

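Enteroendocrine cells are the hormone-secreting cells of the gut lining, and 10 of their genes were followed here among the 13420 mouse genes of the read count table: Chga, Chgb, Sct, Cck, Gip, Gcg, Tac1, Neurod1, Reg4 and Tph1. They were chosen by symbol, and all 10 were present. The cells came from mouse small intestinal organoids, which are grown as 3D cultures of epithelium. WT cells carried the mTmG reporter on a C57BL/6 background and were sorted as mTomato positive. Cancer cells were Dendra2 positive and came from Villin-CreERT2 mice with alleles that include Apc fl/fl and, for p53, Tr53 fl/R172H on a C57BL/6 (F6) background, where the villin promoter restricts Cre to gut epithelium and tamoxifen had been given to the mice before the organoids were made. Both kinds grew either pure or mixed, at 2 WT to 1 cancer. Live cells were sorted after 3 days, and bulk RNA was sequenced from the 3' end of transcripts with 2 libraries in each of the 4 groups, named by their wells. Wells A01 and A05 held pure WT cells and wells A02 and A06 their mixed counterparts, while the cancer cells were in A03 and A07 (pure) and in A04 and A08 (mixed). The sources used here do not say whether the 2 libraries of a group were separate cultures, so the p-values measure the spread between these libraries only, which may be technical.

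Enteroendocrine cells arise from crypt stem cells through a secretory progenitor that briefly makes the transcription factor Neurog3 and then Neurod1. Mature cells pack peptide hormones into dense core granules together with the granins Chga and Chgb and release them when nutrients reach the gut. They are a scattered minority of the epithelium and fall into kinds by their main product: secretin, cholecystokinin, gastric inhibitory polypeptide, glucagon-like peptides, tachykinins, somatostatin, ghrelin or serotonin.

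The promoters of 4 of these genes are shown because their reads were found in WT libraries and almost none in cancer libraries, so that the letters upstream can be set beside that shared pattern. Sequences are from RefSeq on GRCm38.p6, on the strand of the gene, and end at the base before the transcript start. All 10 genes matched an entry, Tph1 with a pair of starts, which gave 11 promoters. Capitals mark the E-box CANNTG, the letters that basic helix-loop-helix factors such as Neurog3 and Neurod1 bind, and the core TGACG, or its complement CGTCA, of the cAMP response element TGACGTCA. The stretches lie at chr12:102554791-102554940 on the plus strand for Chga, chr9:121495695-121495844 on the minus strand for Cck, chr11:96024395-96024544 on the plus strand for Gip and chr2:62483654-62483803 on the minus strand for Gcg.
Chga: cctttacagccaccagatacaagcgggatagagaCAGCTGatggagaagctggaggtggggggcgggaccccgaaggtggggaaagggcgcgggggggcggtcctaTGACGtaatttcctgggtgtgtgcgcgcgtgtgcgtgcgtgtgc
Cck: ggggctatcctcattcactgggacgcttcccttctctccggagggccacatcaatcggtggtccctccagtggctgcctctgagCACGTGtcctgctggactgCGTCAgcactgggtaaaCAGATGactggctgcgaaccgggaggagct
Gip: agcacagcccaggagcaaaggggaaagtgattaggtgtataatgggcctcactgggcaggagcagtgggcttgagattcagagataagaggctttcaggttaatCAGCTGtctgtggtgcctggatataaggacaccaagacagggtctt
Gcg: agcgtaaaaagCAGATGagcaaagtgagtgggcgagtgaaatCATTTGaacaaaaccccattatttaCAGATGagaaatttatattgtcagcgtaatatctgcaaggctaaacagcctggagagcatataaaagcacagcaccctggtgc
Over the 250 bases before the start, 9 of the 11 promoters held an E-box on either strand, against 66.2% of 32851 mouse promoters of that length. The core stood in 6 of the 11, against 17.8% of all promoters. The whole element, which contains the core, stood in 1 of the 11, that of Chgb, against 1.55%. Both Tph1 starts held the core and neither held an E-box, so that gene is counted more than once in these numbers. These matches describe letters only.

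Depth set what could be seen of these genes. Libraries held between 73109 reads (mixed WT A02) and 4733121 reads (mixed cancer A04), and 26.1% of the 5264 tested genes had no read in A02 against 0.646% in A04. Levels are given as CPM, read counts scaled to a common library size after TMM normalization. A count of 0 allows up to 3 reads, which over the pooled libraries of a group made 1.04 CPM for pure and 5.80 CPM for mixed WT cells, and 5.72 CPM for pure and 0.566 CPM for mixed cancer cells. A gene was tested where its reads passed a minimum count of 10 in enough libraries: 6 of the 10 genes were (Chga, Chgb, Cck, Gip, Tac1 and Reg4), and Sct, Gcg, Neurod1 and Tph1 were not. Called means an adjusted p under 0.05 in edgeR's quasi-likelihood test over all 8 libraries, with Benjamini-Hochberg adjustment over the 5264 genes.

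Together the 10 genes had 2592 reads in pure and 427 in mixed WT cells, against 1 in pure and 12 in mixed cancer cells. Their summed level was 903 CPM in pure and 825 CPM in mixed WT cells, and 1.91 CPM in pure and 2.26 CPM in mixed cancer cells. Cancer cells thus held 0.211% of the summed pure WT level in pure and 0.251% in mixed culture. By library the sums were 662 (A01) and 1050 (A05) in pure WT, 878 (A02) and 816 (A06) in mixed WT, 0 (A03) and 2.99 (A07) in pure cancer, and 2.15 (A04) and 5.19 CPM (A08) in mixed cancer cells. The WT groups overlapped, and every cancer library lay under every WT library. In bulk RNA, fewer cells of a type and less RNA per cell cannot be told apart.

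**Figure D1:**
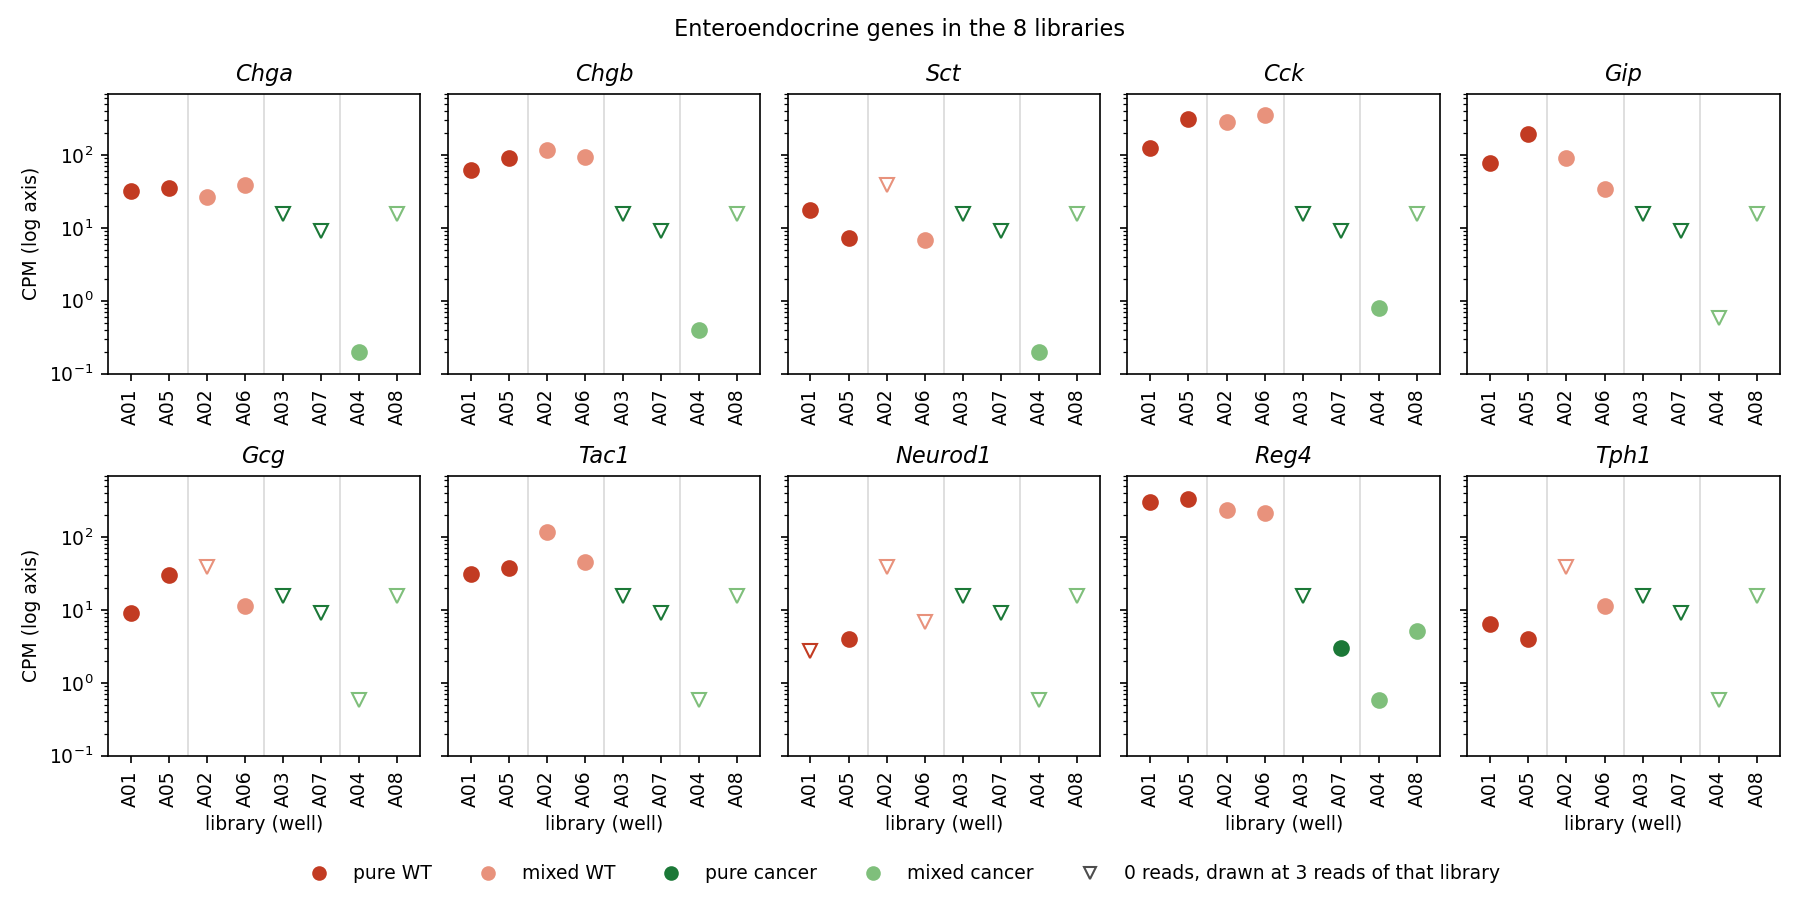
Each panel shows 1 gene, with the library on the x axis and the CPM on a log y axis; filled points are libraries with reads and open triangles are libraries with 0 reads, drawn at the level of 3 reads in that library. Cck, for example, lay at 125 to 360 CPM in the 4 WT libraries and at 0 reads in 3 of the 4 cancer libraries.

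The granins Chga and Chgb, acidic proteins that help to form and fill the hormone granules, were present in all 4 WT libraries. Chga (chr12:102554969-102565028, plus strand, build GRCm38) had 35 and 63 reads in A01 and A05 (pure WT), 2 and 17 in A02 and A06 (mixed WT), none in A03 and A07 (pure cancer), and 1 and 0 in A04 and A08 (mixed cancer), the order of libraries kept below. On the CPM scale that was 32.0 and 35.4 in the pure and 26.2 and 38.5 in the mixed WT libraries. Chgb (chr2:132781278-132795079, plus strand) had 68 and 160 reads in the pure and 9 and 41 in the mixed WT libraries, none in pure cancer, and 2 and 0 reads in mixed cancer libraries. The Chgb level was 62.2 and 89.9 CPM in the pure and 118 and 92.9 CPM in the mixed WT libraries. For Chga the mixed WT libraries lay on either side of the pure WT libraries, and for Chgb both lay above them.

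Cck, which encodes cholecystokinin, the hormone that empties the gall bladder and stimulates the pancreas, had 137 and 552 reads in the pure and 22 and 159 in the mixed WT libraries, none in pure cancer, and 4 and 0 in mixed cancer libraries (A04, A08). Its gene lies at chr9:121489824-121495694 on the minus strand. The Cck level was 125 and 310 CPM in the pure and 288 and 360 CPM in the mixed WT libraries. The groups overlapped, with the lowest of the 4 values in A01.

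Gip encodes the gastric inhibitory polypeptide, an incretin released by K cells when sugar and fat are absorbed (chr11:96024545-96030831, plus strand). It had 86 and 345 reads in the pure and 7 and 15 in the mixed WT libraries, and none in the 4 cancer libraries. The Gip level was 78.7 and 194 CPM in the pure and 91.8 and 34.0 CPM in the mixed WT libraries. The A02 value, which rests on 7 reads, lay between the pure WT values, and the A06 value lay under both.

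Gcg, the proglucagon gene that gives the incretin GLP-1 in L cells, had 10 and 53 reads in the pure and 0 and 5 in the mixed WT libraries, and none in the cancer libraries (chr2:62474530-62483650, minus strand). Sct, which encodes secretin, the hormone that makes the pancreas secrete bicarbonate, had 19 and 13 reads in the pure and 0 and 3 in the mixed WT libraries, none in pure cancer and 1 and 0 in mixed cancer libraries (chr7:141278330-141279133, minus strand). Neither gene entered the test. At the depth of A02, 0 reads of either gene allowed up to 39.3 CPM, more than the level in both pure WT libraries, which was 9.15 and 29.8 CPM for Gcg and 17.4 and 7.31 CPM for Sct. Loss of Gcg or Sct in that library was therefore not detectable.

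Tac1 encodes the tachykinins substance P and neurokinin A, made in the gut by enterochromaffin cells and by enteric neurons, and lies at chr6:7554879-7565834 on the plus strand. It had 34 and 68 reads in the pure and 9 and 20 in the mixed WT libraries, and none in the 4 cancer libraries. The Tac1 level was 31.1 and 38.2 CPM in the pure and 118 and 45.3 CPM in the mixed WT libraries, both mixed values above both pure values. The serotonin gene Tph1, the rate-limiting hydroxylase of enterochromaffin cells, had 7 and 7 reads in the pure and 0 and 5 in the mixed WT libraries, and none in the cancer libraries (chr7:46644641-46672537, minus strand). Its level of 6.41 and 3.93 CPM in pure WT cells lay close to or under the 5.72 CPM that 0 reads allowed in pure cancer cells, so its absence there could not be told from its WT level.

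Neurod1, the basic helix-loop-helix factor that follows Neurog3, was the gene with the fewest reads: 0 and 7 in pure WT and none in the other 6 libraries. It lies at chr2:79452521-79456751 on the minus strand, within the span of Cerkl on the same strand and of the noncoding gene Gm26755 on the other, although none of the 451 windows of 50 bases at the 3' end of its longest transcript was shared with another gene. The 7 reads made 3.93 CPM in A05, under the 5.80 CPM that 0 reads allowed in mixed WT cells. Depth therefore limited every comparison of Neurod1 outside the mixed cancer cells.

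Reg4 encodes a secreted C-type lectin that marks enteroendocrine cells in the small intestine (chr3:98222156-98236748, plus strand). It had 327 and 601 reads in the pure and 18 and 95 in the mixed WT libraries, 0 and 1 in pure cancer, and 3 and 1 in mixed cancer libraries. The Reg4 level was 299 and 338 CPM in the pure and 236 and 215 CPM in the mixed WT libraries. Both mixed WT values lay under both pure WT values, and the cancer libraries lay between 0 and 5.19 CPM.

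The first question of the design was what mixing with cancer cells did to WT cells. None of the 6 tested genes was called between mixed and pure WT cells by edgeR, none had an unadjusted p under 0.05, and DESeq2 called 0 of the 5 for which it gave an adjusted p. Over all tested genes, 0.095% were called lower and 0.646% higher in mixed WT cells. Chga and Chgb differed by 0.03 ± 0.87 and 0.43 ± 0.67 (log2 fold change ± SE, mixed over pure WT; edgeR adjusted p = 0.999 and 0.905). The log2 fold change was 0.59 ± 0.54 for Cck (edgeR adjusted p = 0.795) and 1.07 ± 0.84 for Tac1 (edgeR adjusted p = 0.754). It was -0.51 ± 0.53 for Reg4 (edgeR adjusted p = 0.826) and -1.35 ± 0.77 for Gip (edgeR adjusted p = 0.620). The median over the 6 genes was 0.23, beside -0.10 over all 5264 genes. In data simulated for this comparison on 5264 genes the test recovered 26% of 4-fold and 62.8% of 8-fold changes, so differences of the size measured here were mostly below its reach.

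**Figure D2:**
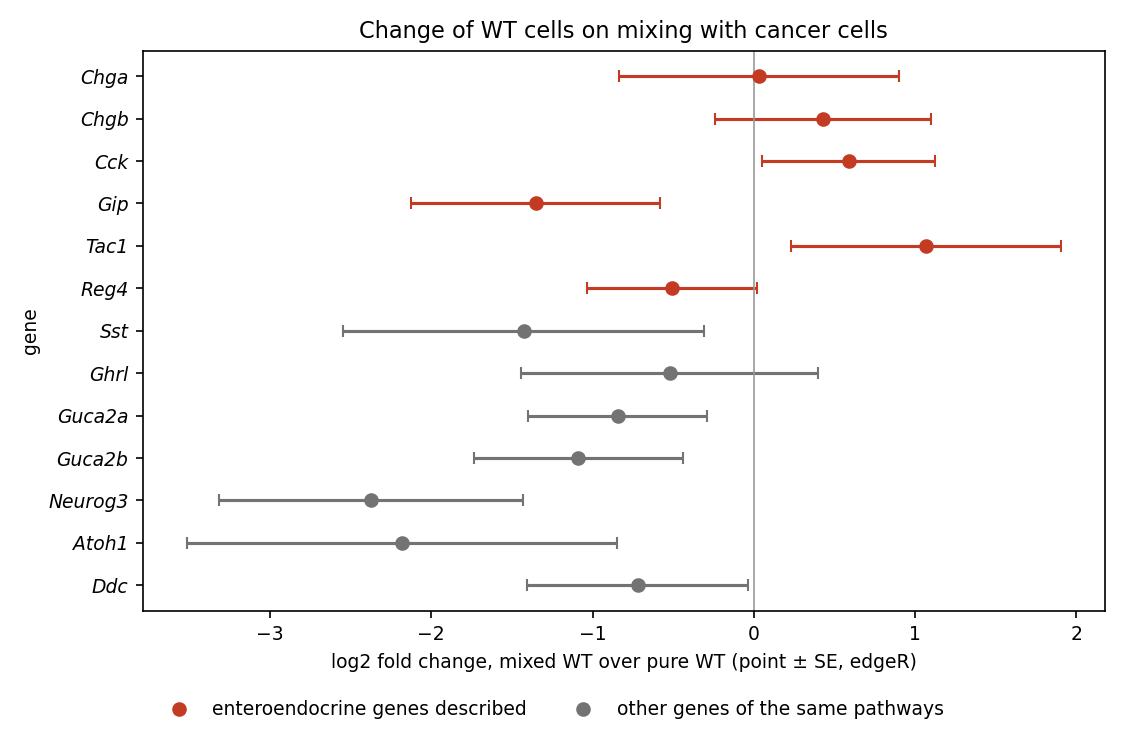
Points are log2 fold changes of mixed over pure WT cells from edgeR with bars of 1 SE, on the x axis, for the 6 tested enteroendocrine genes and 7 other genes of the same pathways on the y axis. The enteroendocrine genes lie on both sides of 0, from -1.35 for Gip to 1.07 for Tac1, and none of the 13 was called.

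The balance between the hormones can be read within a library, without any scaling between libraries. Of the reads of Gip and Cck together, Gip made up 38.6% (95% exact binomial interval 32.1 to 45.3) in A01 and 38.5% (35.3 to 41.7) in A05, so the pure WT libraries lay within 1 point of each other. It made up 24.1% (10.3 to 43.5) in A02, from 29 reads, and 8.62% (4.91 to 13.8) in A06, from 174 reads. Both mixed WT libraries thus lay under both pure WT libraries, but the interval of A02 reached over the pure WT values. Counted as molecule barcodes, the Gip share was 46.5% in A01, 46.9% in A05, 31.2% in A02 and 13.3% in A06. The intervals cover counting error only, and reads of the same molecule are not independent. This share and the next were chosen after the values were seen and were not tested.

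The progenitor factor Neurog3, which starts the enteroendocrine program and is then switched off, had 64 and 150 reads in the pure and 0 and 8 in the mixed WT libraries, 0 in pure cancer and 4 and 0 in mixed cancer libraries. Against the granins of mature cells, Neurog3 made up 38.3% (30.9 to 46.2) of the reads of Neurog3, Chga and Chgb in A01 and 40.2% (35.2 to 45.4) in A05. In mixed WT cells it made up 0 of 11 reads in A02, which allows a share of up to 27.3%, and 12.1% (5.38 to 22.5) of 66 reads in A06. By barcodes the share was 39.8% and 39.2% in the pure and 0 and 14.9% in the mixed WT libraries. In the test over all genes, Neurog3 had a log2 fold change of -2.37 ± 0.94 between mixed and pure WT cells and was not called (edgeR adjusted p = 0.363).

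**Figure D3:**
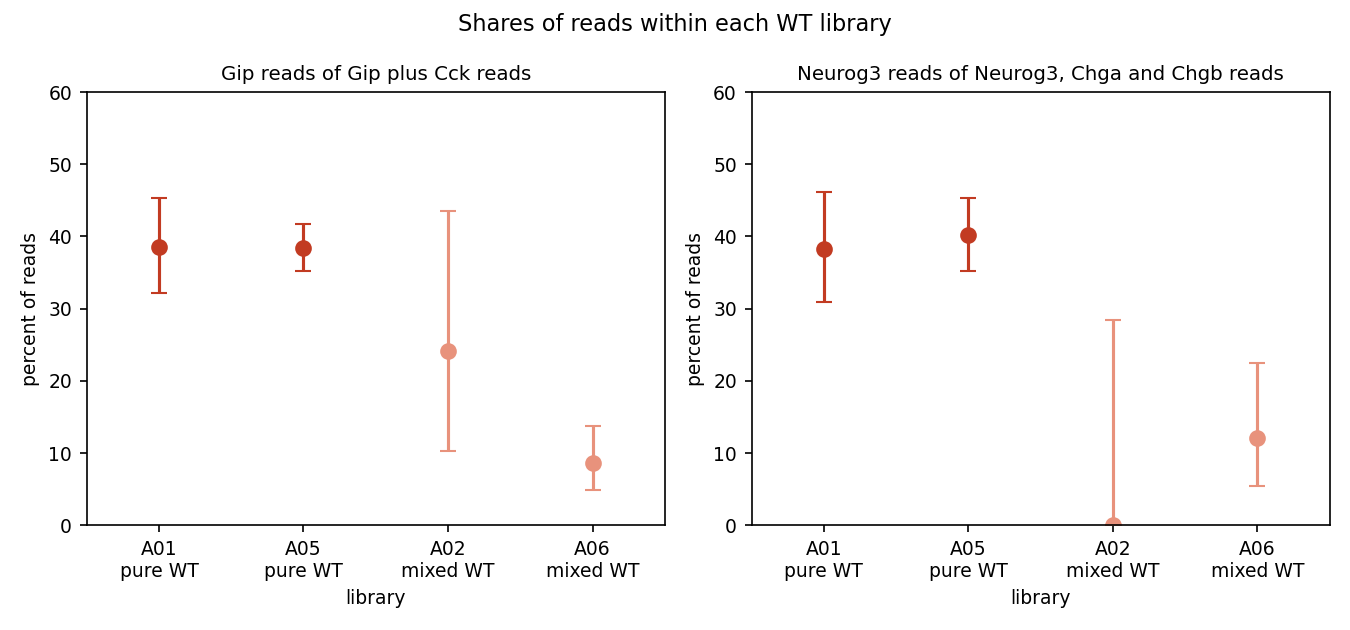
Each point is the percent of reads (y axis) that Gip made up of Gip plus Cck (left) or Neurog3 of Neurog3, Chga and Chgb (right) in a WT library (x axis), with its 95% exact binomial interval. The pure WT libraries lie at 38.3% to 40.2% in both panels, and the mixed WT libraries between 0 and 24.1%.

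The next question was how cancer cells differed from WT cells in the same kind of culture. All 6 tested genes were called lower in pure cancer than in pure WT cells, where 4.84% of the 5264 tested genes were called lower. Both cancer libraries lay under both WT libraries for each of the 6. These genes passed the count filter only through their WT reads, so a lower call was the only one open to them. The share over all genes is therefore not a like comparison. Relative to the 3 reads that a count of 0 allows, Cck was at least 42.0-fold lower (edgeR adjusted p = 1.99e-05), Gip at least 26.2-fold lower (adjusted p = 0.000440) and Chgb at least 13.9-fold lower (adjusted p = 0.000843). Tac1 was at least 6.21-fold lower (edgeR adjusted p = 0.0180) and Chga at least 5.97-fold lower (edgeR adjusted p = 0.0177). Reg4, with 1 read in cancer cells, stood at 0.00590 of its pure WT level (95% counting interval 0.000149 to 0.0329; edgeR adjusted p = 8.47e-06). The median over the 6 genes was -4.25 on the log2 scale, from pooled reads with the 5 genes without reads at these bounds. Over all tested genes the median log2 fold change fitted by edgeR, a different measure, was -0.05. At the depth of these libraries the bounds follow the pure WT level of each gene. The 2 genes with the lowest bounds, Chga and Tac1, also lost their calls when some libraries were left out. Without A05, Chga had an adjusted p of 0.216 and Tac1 of 0.116, without A07 0.149 and 0.127, and Chga without A01 0.123 (edgeR).

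Of the genes that were not tested, Gcg was at least 3.84-fold and Sct at least 1.95-fold lower in pure cancer than in pure WT cells. Neurod1 and Tph1 allow no fold there, since their pure WT levels, 2.44 and 4.87 CPM over the pooled libraries, lay under the level that 0 reads allowed in pure cancer cells.

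The same question in mixed cultures could be followed further down, because A04 alone held 4733121 reads. All 6 tested genes were called lower in mixed cancer than in mixed WT cells, where 4.41% of the tested genes were called lower. Both cancer libraries lay under both WT libraries for each of the 6. Here too these genes had entered the test only through their WT reads, so only a lower call was open to them. Tac1 was at least 99.0-fold lower (edgeR adjusted p = 0.000248) and Gip at least 75.1-fold lower (edgeR adjusted p = 0.000209). Cck stood at 0.00216 of its mixed WT level (95% counting interval 0.000581 to 0.00562; edgeR adjusted p = 7.73e-07) and Reg4 at 0.00346 (0.000926 to 0.00909; edgeR adjusted p = 1.43e-06). The ratio was 0.00390 for Chgb (0.000460 to 0.0149; edgeR adjusted p = 4.18e-05) and 0.00514 for Chga (0.000124 to 0.0323; edgeR adjusted p = 0.00211). The median over the 6 genes was -7.80 on the log2 scale, from pooled reads with the 2 genes without reads at their bounds. Over all tested genes the median log2 fold change fitted by edgeR, a different measure, was 0.12.

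Among the untested genes, Gcg and Tph1, with 5 reads each in mixed WT and none in mixed cancer cells, were each at least 17.1-fold lower, while Sct, with 3 and 1 reads, allows no fold. Much of this rests on A04: without it, 3 of the 6 genes were called, and the adjusted p rose to 0.270 for Chga, 0.111 for Gip and 0.0991 for Tac1 (edgeR). Without A06, Chga had an adjusted p of 0.0889 (edgeR).

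Few reads of these genes were found in cancer cells. The mixed cancer cells had 12 reads: 4 of Cck, 4 of Reg4, 2 of Chgb, 1 of Chga and 1 of Sct, of which 11 were in A04, and the pure cancer cells had 1 read of Reg4 in A07. None of the 6 tested genes was called between mixed and pure cancer cells, where edgeR called 0% of all tested genes (69 had an unadjusted p under 0.05, and DESeq2 called 0). Reg4 in mixed cancer cells stood at 0.396 of its pure cancer level with a counting interval from 0.0392 to 19.5, which leaves either direction possible. Whether these reads came from cancer cells or from WT cells and RNA carried into the sort was not tested. A test of whether mixing changed WT cells otherwise than cancer cells called 0 of the 6 genes and 0.076% of all tested genes (edgeR interaction term; 383 genes had an unadjusted p under 0.05, and DESeq2 called 12), a comparison with little meaning for genes at or near 0 reads in cancer cells.

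The other tested hormones of the gut, apart from Adm, were also lower in cancer than in WT cells. Of 21 genes on the list of peptide hormones, which includes 5 of the 10 genes above, 16 were in the table and 8 were tested: 7 were called lower and 1 higher in pure cancer than in pure WT cells, 7 lower and 0 higher in mixed cancer than in mixed WT cells, and 0 between mixed and pure WT cells. The summed level of the list was 1101 and 811 CPM in pure and mixed WT cells and 47.7 and 107 CPM in pure and mixed cancer cells. The median change with genes without reads at their bounds was -4.70 in pure and -6.86 in mixed cultures on the log2 scale. Cck, Gip and Tac1, already described, are among the genes called lower and enter these medians. Over all tested genes, 4.84% were called lower in pure and 4.41% in mixed cultures. Apart from Adm, the tested hormones too had entered the test only through their WT reads, so only a lower call was open to them. The shares over all genes are therefore not a like comparison here.

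Sst, the somatostatin of inhibitory D cells, varied widely among WT libraries, with 23 and 398 reads in the pure and 10 and 2 in the mixed WT libraries, 0 in pure cancer and 4 and 0 in mixed cancer libraries. Its level was 21.1 and 224 CPM in the pure and 131 and 4.53 CPM in the mixed WT libraries. The libraries of both WT groups lay far apart, and Sst had a log2 fold change of -1.43 ± 1.12 between mixed and pure WT cells (edgeR adjusted p = 0.751). It fell at least 25.6-fold in pure cancer against pure WT cells (edgeR adjusted p = 0.00819) and stood at 0.0325 (0.00765 to 0.107) of its mixed WT level in mixed cancer cells (edgeR adjusted p = 0.0288), a call lost without A02 (0.566), A04 (0.284) or A05 (0.0872), with DESeq2 (0.139) and with a minimum count of 50 (0.0968). The call in pure cultures was lost without A05 (0.387), with DESeq2 (0.0785) and with a minimum count of 50 (0.0526).

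Ghrl, the appetite hormone ghrelin, had 44 and 156 reads in the pure and 5 and 15 in the mixed WT libraries, 0 in pure cancer, and 0 and 1 in mixed cancer libraries. It was at least 12.2-fold lower in pure cancer than in pure WT cells (edgeR adjusted p = 0.00818) and stood at 0.00488 (0.000118 to 0.0305) of its mixed WT level in mixed cancer cells (edgeR adjusted p = 0.00510). The first call was lost without A05 (0.114) and the second without A04 (0.389), and both with DESeq2 (0.135 and 0.269). The guanylins Guca2a and Guca2b, luminal peptides that drive salt and water secretion and are made by several epithelial cell types, had 764 and 425 reads in the pure and 81 and 40 in the mixed WT libraries cells. In pure and mixed cancer cells Guca2a had 0 and 6 reads and Guca2b 1 and 3. Both were called lower in both cancer comparisons (edgeR adjusted p between 1.04e-05 and 0.000194).

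Adm, adrenomedullin, a vasodilator peptide made by many cell types, went the other way. It had 5 and 4 reads in the pure and 0 and 24 in the mixed WT libraries, 7 and 14 in pure cancer, and 490 and 6 in mixed cancer libraries, or 4.58 and 2.25, 0 and 54.4, 36.7 and 41.9, and 95.9 and 31.1 CPM. It was higher in pure cancer than in pure WT cells (log2 fold change 3.56 ± 0.98, edgeR adjusted p = 0.0191), a call lost without A01 (0.0509), A05 (0.194) or A07 (0.0553). Between mixed and pure WT cells the log2 fold change was 3.47 ± 0.98 (edgeR adjusted p = 0.123). All mixed WT reads came from A06, while 0 reads in A02 allowed up to 39.3 CPM, more than the level in both pure WT libraries. Of the 25 reads of the hormone list in pure cancer cells, 21 were of Adm.

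The list of transcription factors holds factors of the secretory lineage and factors that gut epithelium uses broadly. Of 25 listed factors, 23 were in the table and 5 tested: Neurog3 and Atoh1 were called lower in pure cancer than in pure WT cells, none was called higher, and none was called in the other comparisons. Over all tested genes, 4.84% were called lower in pure cultures. Neurog3 and Atoh1 had entered the test only through their WT reads, so only a lower call was open to them. The median change was -1.92 on the log2 scale in pure cultures with genes without reads at their bounds. Neurog3 was at least 13.0-fold lower in pure cancer cells (edgeR adjusted p = 0.00315), a call lost without A05 (0.0986). In mixed cancer cells it stood at 0.0488 (0.0108 to 0.182) of its mixed WT level and was not called (edgeR adjusted p = 0.0602). It was called lower there with transcript counts (0.0200) and without A02 (0.0141), A03 (0.0197) or A07 (0.0176), and turned in direction without A06 (log2 fold change 3.05, edgeR adjusted p = 0.872).

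Atoh1, which commits progenitors to the secretory fate, had 30 and 55 reads in the pure and 1 and 2 in the mixed WT libraries and none in cancer libraries, and was at least 5.18-fold lower in pure cancer cells (edgeR adjusted p = 0.0488). That call was lost with DESeq2 (0.0948), with median-of-ratios factors (0.0525), with upper-quartile factors (0.0501), without A03 (0.105) and without A07 (0.240). The forkhead factors Foxa1 and Foxa2, which are among the latter, were not called, with Foxa1 at 88.4 and 61.8 CPM in pure and mixed WT cells and 82.0 and 93.9 CPM in pure and mixed cancer cells. Foxa2, which was not tested, stood at 17.8, 17.4, 13.3 and 13.6 CPM in the same order.

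Fev and Pax4, factors of the committed lineage that were too low to be tested, were singled out after their values were seen. Fev had 25 and 53 reads in pure WT and none in mixed WT or pure cancer cells, at least 4.69-fold lower in mixed than in pure WT cells. Pax4 had 5 and 20 reads in pure WT and none elsewhere. Neurog3, Atoh1, Fev and Pax4 thus had lower pooled levels in mixed than in pure WT cells. The factors Mlxipl (21.6 and 30.9 CPM in pure and mixed WT cells) and Insm1 (7.31 and 9.66 CPM) did not. Their mixed WT reads, 16 of Mlxipl and 5 of Insm1, all came from A06, while 0 reads in A02 allowed up to 39.3 CPM. Chga, Chgb, Cck and Tac1 were not lower either, but Gip (150 and 42.5 CPM), Reg4 (323 and 218 CPM) and Sst (147 and 23.2 CPM) were. Gcg and Sct were also lower, from few reads. Direction was therefore mixed among the genes of mature cells. It was also mixed among the factors named, where the higher mixed WT levels rest on A06 alone. These differences were not called or not tested.

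Granule proteins and prohormone processing enzymes are shared with other secretory cells. Of 35 listed genes, 30 were in the table and 7 tested: 2, Chga and Chgb themselves, were called lower in each cancer comparison, and 0 were called higher there or called on mixing of WT cells. The list held 63.0% of its pure WT level in cancer cells grown pure and 46.6% in those grown mixed. Of its 123 reads in pure cancer cells, 38 were of Pam, 25 of Rab3d and 19 of Cpe, and none of Chga or Chgb. In mixed cancer cells these 3 genes gave 206, 165 and 147 of its 919 reads. Cpe, the carboxypeptidase that trims prohormones, stood at 21.6 and 5.80 CPM in pure and mixed WT cells and 36.2 and 27.7 CPM in pure and mixed cancer cells. Pam, which amidates peptides, stood at 11.8, 21.2, 72.4 and 38.8 CPM, and the vesicle protein Rab3d at 52.9, 46.4, 47.7 and 31.1 CPM in the same order. None of Cpe, Pam and Rab3d was called, Pam with an adjusted p of 0.0524 between pure cancer and pure WT cells (edgeR). The 5.80 CPM of Cpe in mixed WT cells rests on 3 reads, all in A06.

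The serotonin list holds the enzymes of serotonin synthesis and the general enzymes that make and recycle their cofactor. Of 11 listed genes, 10 were in the table and 6 tested: 2 were called lower in pure cancer than in pure WT cells, 1 in mixed cultures, and 0 on mixing of WT cells. The shares called lower over all tested genes were 4.84% in pure and 4.41% in mixed cultures. Ddc, the decarboxylase that completes serotonin synthesis and is also made by enterocytes, had 119 and 204 reads in the pure and 3 and 37 in the mixed WT libraries and none in the 4 cancer libraries. It was at least 19.7-fold lower in pure cancer (edgeR adjusted p = 0.000408) and at least 137-fold lower in mixed cancer cells (edgeR adjusted p = 5.11e-05), the latter call lost without A04 (0.0620). Ddc had entered the test only through its WT reads, so only a lower call was open to it.

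Maoa, which degrades serotonin, fell in pure cancer cells (log2 fold change -2.86 ± 0.86, edgeR adjusted p = 0.0342, lost without A01, A05 or A07 and with DESeq2) from 101 and 152 reads in A01 and A05 to 4 and 2 reads in A03 and A07. The cofactor genes were not called. Gch1 stood at 28.5 and 257 CPM in pure and mixed WT cells and 66.7 and 98.8 CPM in pure and mixed cancer cells. In the same order Qdpr stood at 255, 155, 145 and 157 CPM and Spr at 120, 48.3, 70.5 and 71.1 CPM. The Gch1 level in mixed WT cells came from A06 (299 CPM), with 13.1 CPM in A02.

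Nutrient sensors and hormone receptors were mostly out of reach. Of 28 listed genes, 11 were in the table and 2 tested. Slc5a1, the sodium glucose cotransporter of enterocytes and enteroendocrine cells, had 77 and 101 reads in the pure and 3 and 29 in the mixed WT libraries and none in cancer libraries, at least 10.8-fold lower in pure (edgeR adjusted p = 0.00327) and at least 109-fold lower in mixed cultures (edgeR adjusted p = 0.000216), the latter call lost without A04 (0.103). The long-chain fatty acid receptor Ffar4 stood at 38.0 and 29.0 CPM in pure and mixed WT cells and 101 and 137 CPM in pure and mixed cancer cells and was not called (edgeR adjusted p = 0.240 and 0.266 against WT). Cacna1a, a calcium channel subunit, had 22, 2, 0 and 56 reads in the same order and was not tested. Over the pooled libraries that was 7.66, 3.86, 0 and 10.6 CPM, where 0 reads allowed up to 5.72 CPM.

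**Figure D4:**
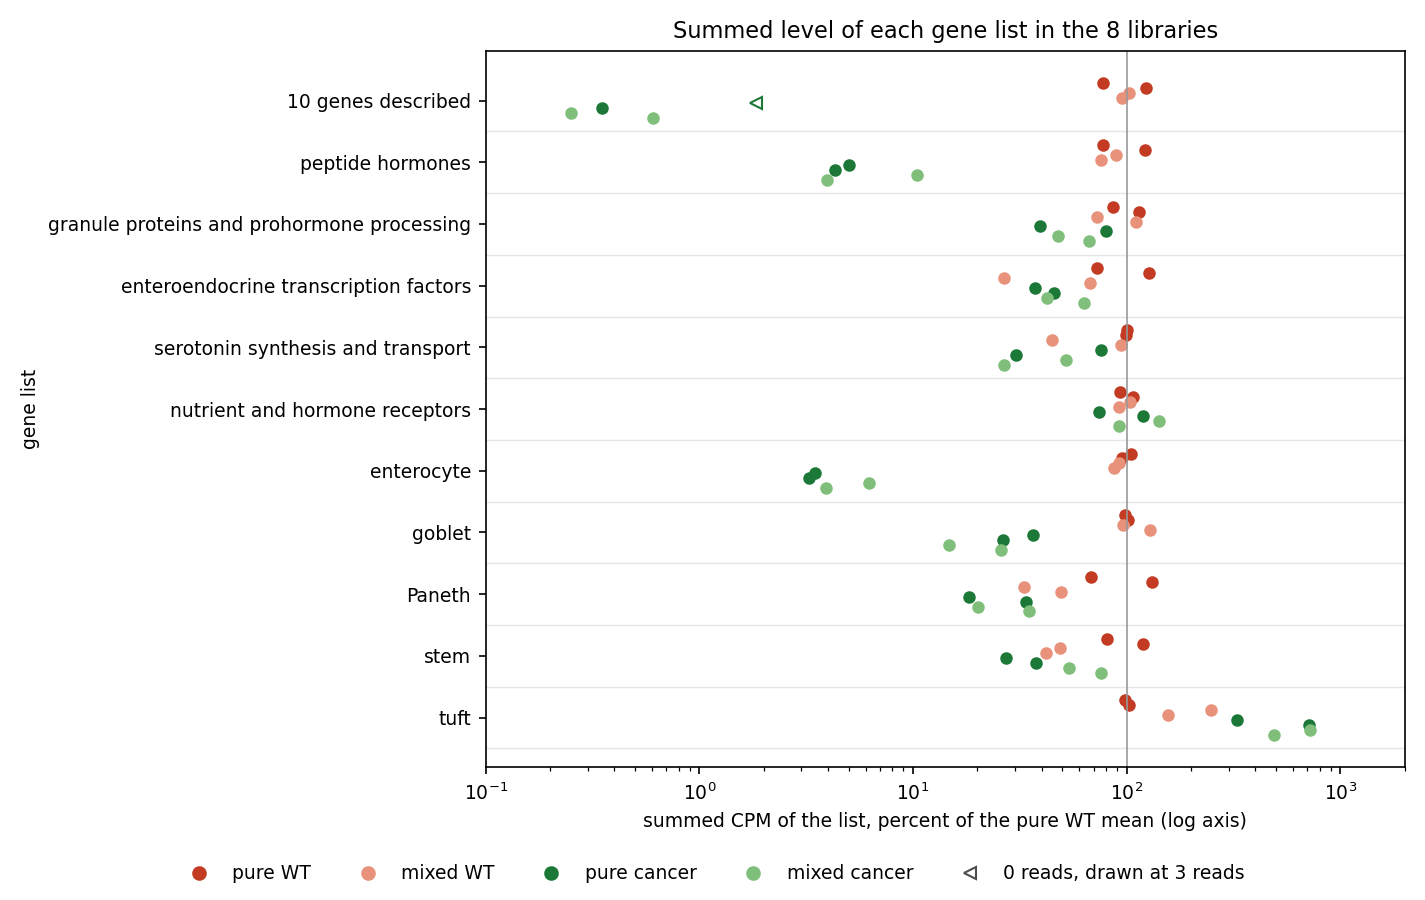
Each row is a gene list and each point a library; the x axis is the summed CPM of the list as percent of the mean of the pure WT libraries, on a log scale, and the open triangle is a library with 0 reads drawn at the level of 3 reads. The 10 enteroendocrine genes lie under 1% in the cancer libraries with reads, and the enterocyte list at 3.26% or more with Vil1, or at 0.707% and 0.410% in pure and mixed culture over pooled libraries without it.

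The genes whose log2 CPM most resembled the mean profile of the 6 tested genes over the 8 libraries were Fam174b (Pearson r = 0.997), the goblet mucus protein Fcgbp (0.997), the microvillus motor Myo1a (0.996), Cyp2c65 (0.995) and Dapk2 (0.994). The profile is mostly a step between 4 WT and 4 cancer libraries, and the shallow libraries share zeros, so these values describe that step and carry no test.

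Most markers of other mature cell types were low in cancer cells too, and most reads of each list there came from 1 or 2 genes. The enterocyte list held 3.38% of its pure WT level in cancer cells grown pure and 6.18% in those grown mixed, with 8 of its 9 tested genes called lower in each comparison. Vil1, the villin of microvilli, gave 30 of its 37 reads in pure and 644 of 685 in mixed culture, and without Vil1 the list held 0.707% and 0.410%. The goblet list held 29.9% and 15.1%, with 5 of 6 tested genes called lower in each. Spink4, a secreted protease inhibitor of goblet cells that was not called, gave 479 of its 487 and 2446 of its 2493 reads, and without Spink4 the list held 0.618% and 0.359%. Over all tested genes, 4.84% were called lower in pure and 4.41% in mixed culture. Most genes called lower in these lists and in the Paneth list below entered the test only through their WT reads. For those only a lower call was open, so the shares over all genes are not a like comparison.

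The Paneth list held 26.2% and 19.2%, with 3 of 5 called lower in each and 2 called higher in pure and 1 in mixed cultures. The protease Mmp7 and the stress protein Nupr1 gave 464 of its 476 and 3430 of its 3531 reads, and without them the list held 0.681% and 0.567%. With only Mmp7 left out it held 6.12% and 3.87%. Once these genes were left out, the other mature lists stood at under 1%, beside 0.211% and 0.251% for the 10 enteroendocrine genes. The 0.211% rests on 1 read (1.91 CPM), where 0 reads in pure cancer cells allowed up to 5.72 CPM. It therefore sets no order between the enteroendocrine genes and the other lists. The genes left out were those with most reads in cancer cells, 1 or 2 by list, a step chosen after the values were seen. That choice itself lowered the levels of the enterocyte, goblet and Paneth lists, and their difference from the enteroendocrine genes was not tested. With Reg4 left out in the same way, the enteroendocrine genes had 0 reads in pure cancer cells and held 0.260% in mixed culture. The stem cell list held 32.3% and 52.2%, with 3 of 8 called lower in pure cultures, and 1 lower and 2 higher in mixed cultures, and still held 22.1% and 32.4% without its 2 genes with most reads in cancer cells, Axin2 and Tnfrsf19.

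In mixed WT cells the same lists held 88.8% (enterocyte), 123% (goblet), 43.5% (Paneth) and 40.8% (stem) of their pure WT levels, beside 91.4% for the 10 enteroendocrine genes, and no gene of these lists was called. By library the summed enterocyte level was 2207 and 2017 CPM in the pure and 1953 and 1837 CPM in the mixed WT libraries, and the stem level 610 and 901 CPM in the pure and 367 and 315 CPM in the mixed WT libraries. The tuft list, with 1 tested gene, held 169% of its pure WT level in mixed WT cells, 571% in pure and 710% in mixed cancer cells, where Avil, called higher in pure cancer cells, gave most reads. Its defining genes Dclk1 and Trpm5 had 3 and 4 reads in pure WT and none in the other groups. Of 14 non-epithelial genes, 5 were in the table: they had 16 reads in pure and 0 in mixed WT cells, 1 in pure and 14 in mixed cancer cells. The part of any of these lists in the levels of the enteroendocrine genes was not tested.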

How the data were processed

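Bulk RNA from sorted organoid cells was sequenced by CEL-Seq, which reads transcripts from the 3' end. Per the study's methods, BWA placed read 2 on the RefSeq transcriptome of mm10, ambiguous reads were dropped, and featureCounts gave the reads per gene; DESeq2 1.22.2 is among the tools that the submitters' processing notes name. The authors deposited raw read counts for each gene, which include amplification copies, barcode counts (different molecule barcodes per gene, at most 256), and estimated counts of transcripts corrected for shared barcodes. Their table of mixed against pure WT cells holds their own fold changes and p-values and was not used.

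The groups follow the labels. Read counts were fitted in edgeR 4.0.16 (R 4.3.3) with TMM factors, filterByExpr at a minimum count of 10 and a quasi-likelihood test over all 8 libraries; 5264 genes were tested. Each SE was taken as the size of the log2 fold change over the root of its F. CPM uses effective library sizes, and depth ran from 73109 to 4733121 reads. An entry for a spike-in and another for a reporter, with 1 read together, were left out. The fit was tested on simulated data. Alternatives were barcode counts, rounded transcript counts, other factors and filters, the 4 libraries compared alone, DESeq2 1.42.0, and each library left out. Genes named beside the 10 are those of each pathway list that were called, the 3 with most reads, and the 5 most alike in profile; exceptions are stated. The genes and lists were chosen with earlier results of these data known. Gene positions are from GENCODE vM21 and promoters from RefSeq. A further allele of the cancer cells and a marker gene are not reported here.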

Additional observations from a re-analysis of the deposited data

How the results depend on the processing

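No test was paired, since the groups share no replicate number and nothing in the labels ties one well to another. Between mixed and pure WT cells, none of the tested enteroendocrine genes was called under any alternative run, and 86 of 90 values for single genes kept their direction; the exceptions were all of Chga, at -0.11 on the log2 scale with no low-count filter and between -0.45 and 0.15 with a library left out. Between cancer and WT cells every value stayed negative: 86 of 91 kept their call in pure and 86 of 90 in mixed cultures. The number of these genes called was 2 in each with a minimum count of 50, which left 2 tested, and 3 to 7 in mixed cultures with a library left out.

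Counts over all genes moved more. In mixed against pure WT cells, 39 genes were called, against 93 with barcode counts, 82 with transcript counts, 68 with no low-count filter, 108 on the 4 libraries compared, 70 with DESeq2 and 2 to 118 with a library left out (2 without A06, 8 without A05). In pure cultures 524 were called between cancer and WT cells, 232 with a minimum count of 50 and 261 to 745 with a library left out; in mixed cultures 338, 151 and 167 to 506. The change on mixing differed for 4 genes, against 23 with barcode counts, 10 with transcript counts, 10 with no low-count filter, 12 with DESeq2 and 1 to 32 with a library left out. On a CPM scale of barcodes, the summed enteroendocrine level was 1539 and 1251 for pure and mixed WT cells and 5.20 and 13.0 for pure and mixed cancer cells; with a library left out it was 816 to 878 CPM in mixed WT and 2.15 to 5.19 CPM in mixed cancer cells.

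With a library left out, the log2 fold change between mixed and pure WT cells ran from -4.77 to 1.58 for Sst, from -0.96 to 0.26 for Ghrl, from -5.10 to 3.98 for Adm and from -0.78 to 0.0050 for Slc5a1. Sst was called there without A02 (edgeR adjusted p = 0.0437), and Adm without A02, A03, A07 or A08 (edgeR adjusted p between 0.00862 and 0.0286). Between mixed cancer and mixed WT cells it ran from -0.26 to 9.43 for Adm and from -6.04 to 3.05 for Neurog3. The causes were not tested. With 2 libraries a group and 73109 reads in A02, changes in mixed WT cells under 4-fold were seldom within reach.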
